A study of Ovis aries with 18 samples.

Results

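The Hippo pathway was examined in sheep blastocysts sired by control or methionine-treated rams, together with one cytosine in the *NF2* gene that was measured in the sperm of the same rams. The genes were chosen by name, as 10 pathway genes: *NF2*, *AMOT*, *AMOTL2*, *STK3*, *LATS1*, *LATS2*, *YAP1*, *WWTR1*, *TEAD1* and *TEAD4*. Of these, 8 matched a row among the 20092 genes counted, while *YAP1* and *LATS1* were not analysed here. The cytosine was 1 of 1850625 measured in sperm. All 6 rams were Polypay and were named by number. Ram410, Ram423 and Ram444 received a general basal diet, and Ram424, Ram498 and Ram511 received that diet with a top-dress of rumen-protected methionine (1.5 g, or 0.22%). Feeding lasted 77 days from a mean age of 88 days, semen was taken 1 month later, and the rams were bred to superovulated Polypay ewes about 2 months after feeding ended. Blastocysts were flushed from 7 ewes 8 days after the rams were introduced, and RNA was taken from 12 pools of 5 embryos, 6 pools per sire diet. Each control ram sired 2 pools, whereas Ram424 sired 4 of the treatment pools and Ram498 and Ram511 sired 1 each. Because pools with the same sire, and perhaps the same dam, are related, the p-values across pools measure the spread between pools rather than between independent rams. Before sequencing, whole transcriptome amplification was applied to the RNA.

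The Hippo pathway is a kinase cascade through which cells read contact and polarity. In its active state, the kinase STK3 (also called MST2) phosphorylates LATS kinases, and these phosphorylate the coactivators YAP1 and WWTR1 (TAZ), which are then held out of the nucleus. In mammalian blastocysts, the best known role of the pathway is the first lineage choice: in outer, polarized cells the coactivators enter the nucleus and act with TEAD4 to turn on trophectoderm genes, whereas in inner cells AMOT and NF2 keep LATS active. This control acts largely on protein phosphorylation and location, which RNA counts do not measure.

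Levels are given as CPM (the count of a gene scaled to a library of fixed size) after TMM normalization, and a fold change is the log2 of the methionine over the control level with its standard error. Because transcript length was not used, levels were compared between pools and not between genes. Gene counts of a pool summed to 1017847 to 2398589. A pair of pools stood apart from the other 10. The median Spearman correlation with the other pools was 0.582 for pool Embryo444_2, from a control sire, and 0.600 for pool Embryo511_1, from a treatment sire, against 0.820 to 0.857 for the rest. The 7 trophectoderm markers with a row summed to 273 CPM in pool Embryo444_2 and 261 CPM in pool Embryo511_1, against 5394 to 14712 CPM in the other pools, and *KRT8*, the keratin most abundant among them, was at 116 and 42.6 CPM against 3893 to 11862 CPM. In both pools 6 of the 7 were below every other pool, while *ELF5* was within their range at 29.0 and 66.4 CPM, and none was at 0. Of the 2 inner cell mass markers with a row, the pluripotency gene *POU5F1* was lower, at 14.2 and 39.7 CPM against 132 to 521 CPM, and *NANOG* was within the range of the others at 9.91 and 7.93 CPM. The 4 hypoblast markers went different ways: *GATA6* was at 38.9 and 66.4 CPM against 249 to 801 CPM, but *GATA4* was highest in Embryo511_1 at 94.2 CPM and *PDGFRA* in Embryo444_2 at 165.6 CPM. *SOX17*, low in every pool, was at 1.42 CPM in Embryo444_2 and 0 in Embryo511_1, against 0.71 to 5.71 CPM in the others. Of 6 oocyte and cumulus markers, Embryo511_1 was above the 10 others for the egg coat genes *ZP2*, *ZP3* (410 CPM) and *ZP4* and below them for *PTX3* and for *ZAR1*, which was at 0. Embryo444_2 was above them for *HAS2* (106.2 CPM) and *ZP3* (27.6 CPM) and below for *ZAR1*. Of 3 sperm markers, the spermatid gene *TNP1* was at 1008 CPM in Embryo511_1, against a highest value of 15.6 CPM elsewhere, while *AKAP4* and *ODF1* were within the range of the others. Of 7 uterine markers, 3 were above the 10 others in each pool, *FOXA2*, *MUC1* and *COL1A1* in Embryo444_2 and *FOXA2*, *COL1A1* and *COL3A1* (134 CPM) in Embryo511_1, and the remaining 4 were within their range. Of 3 blood cell markers, *PTPRC* was above the others in both pools and *CD68* and *ALAS2* were below, where *ALAS2* ranged from 9.91 to 622 CPM over the 12 pools. The part of these cell types in the results was not tested. Fold changes of the Hippo genes are therefore given for 12 pools and for the 10 concordant pools. Those of other pathway genes are for 12 pools unless the 10 are named. Pools Embryo424_1 and Embryo424_2 were the most alike, with a Spearman correlation of 0.955, although their counts still differed beyond sampling noise (chi-square per degree of freedom 3.29).

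The question for the embryos was whether the sire diet changed the RNA of the pathway. Of the 8 Hippo genes, 7 had a higher fitted level with treatment sires and *STK3* had a lower one, but 0 passed an FDR under 0.05 in edgeR's quasi-likelihood test, and 0 had an unadjusted p under 0.05. Over all 16488 genes tested, 0% passed the FDR, 7.92% had an unadjusted p under 0.05 (3.55% higher and 4.37% lower with treatment sires) and 50.5% had a higher fitted level. The median log2 fold change of the 8 genes was 0.35, against 0.01 over all genes. For each of the 8, the levels of the control and treatment pools overlapped, and over all genes 0.352% had pools that did not overlap. With the 10 concordant pools, 6 of the 8 were higher with treatment sires (background 47%), 1 had an unadjusted p under 0.05 (background 11.9%) and 0 passed the FDR, which 1 of 16161 genes (0.00619%) did. The likelihood-ratio test of edgeR and DESeq2 also called 0 of the 8 in either set of pools. The median log2 fold change of the 8 was 0.31 in the 10 concordant pools (−0.03 over all genes). With the pools of each ram summed it was 0.17 (0.03 over all genes). Leaving out Ram424 left Embryo498_1 and the discordant Embryo511_1 as treatment pools. The median was then −0.03, with 4 of the 8 higher (−0.04 over all genes). The pools that make up these fold changes are shown in the plot of levels by pool.

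**Figure D1:**
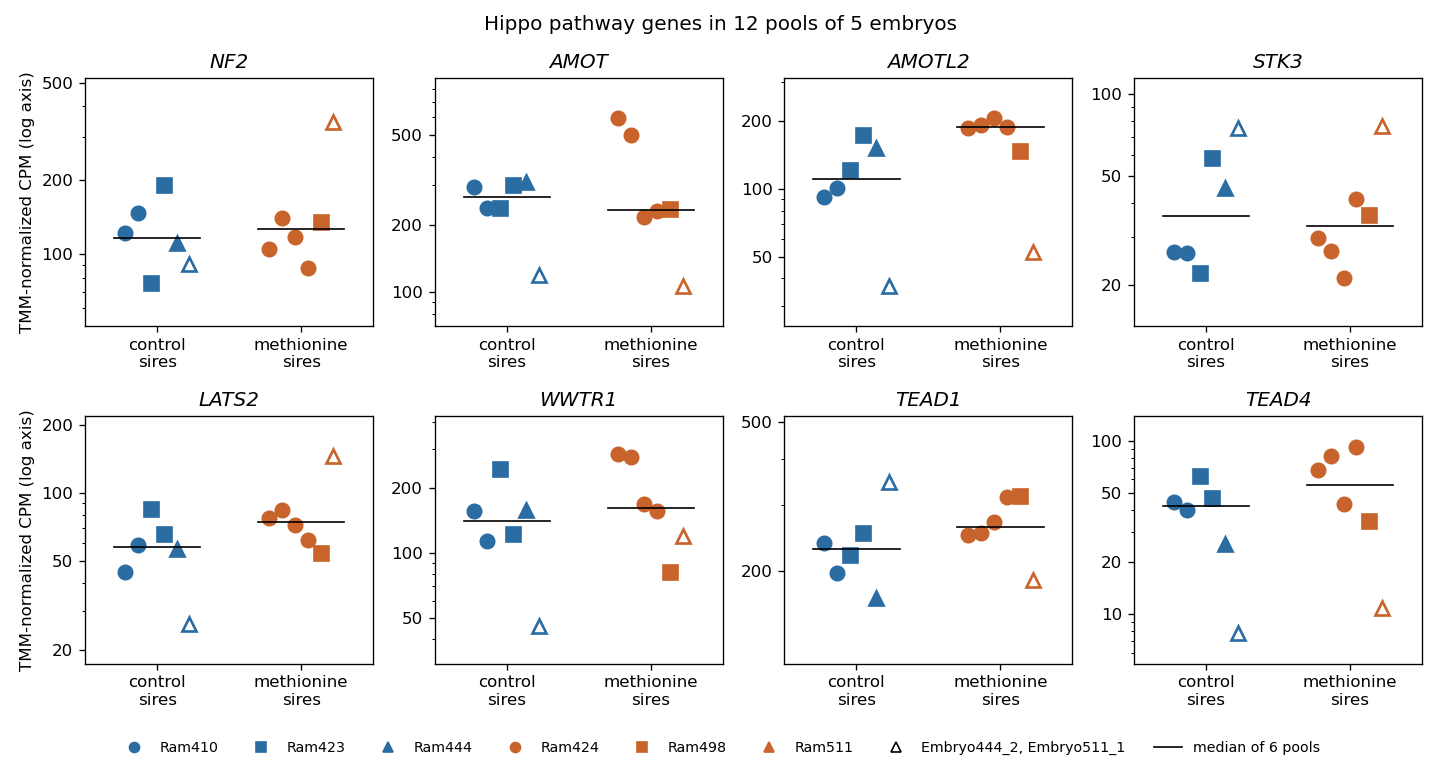
Level of the 8 Hippo genes in CPM (log axis) in each of 12 pools, 6 per sire diet, with symbols for the ram, open symbols for pools Embryo444_2 and Embryo511_1 and a line at the median of 6 pools. *TEAD4*, *AMOT* and *AMOTL2* are lowest in the 2 open symbols, which lie in opposite groups, while *NF2* and *LATS2* are highest in pool Embryo511_1.

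*NF2* encodes merlin, a membrane-linked protein that activates the cascade by bringing LATS kinases to the membrane. In control pools *NF2* ranged from 76.4 to 191 CPM with a median of 116 CPM, and in treatment pools from 87.5 to 347 CPM with a median of 127 CPM. The top value was that of pool Embryo511_1, at 347 CPM, and the next highest treatment pool had 141 CPM. The count of *NF2* was 107 to 350 reads per pool. The mean was 156 ± 95.8 CPM (SD, n = 6) with treatment sires and 123 ± 41.2 CPM (SD, n = 6) with control sires. The log2 fold change was 0.33 (SE 0.34), with an FDR of 0.819. In the 10 concordant pools the sign turned, to −0.15 (SE 0.24; 95% interval −0.66 to 0.35; FDR 0.840), so the higher mean rested on pool Embryo511_1. Neither estimate was larger than the spread between pools.

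AMOT and AMOTL2 are angiomotins, junction proteins that bind YAP1 and, in inner cells, help LATS to be activated. *AMOT* was between 215 and 311 CPM in 8 of the 10 concordant pools, from both diets, and at 597 and 502 CPM in pools Embryo424_1 and Embryo424_2. Pools Embryo444_2 and Embryo511_1 had the lowest levels, at 120 and 106.1 CPM. Treatment over control gave a log2 fold change of 0.33 (SE 0.40; FDR 0.846) in 12 pools and 0.35 (SE 0.29; FDR 0.654) in 10. Without the 4 pools of Ram424 it was −0.54, so the sign did not hold without them. That leaves Embryo498_1 and the discordant Embryo511_1 as the treatment pools. The other 2 pools of Ram424 had 215 and 229 CPM, the lowest of the concordant pools, where the next was Embryo498_1 at 234 CPM. In pools Embryo424_1 and Embryo424_2, *CDH1*, the junction protein E-cadherin, was also highest, at 454 and 490 CPM against 71.5 to 317 CPM elsewhere. The LATS cofactor *MOB1A* was highest there too, at 197 and 203 CPM against 28.3 to 127 CPM. Both genes were named after their values were seen. Outside the pathway lists, *GATA6* was also highest in these 2 pools, at 801 and 736 CPM, while *KRT8* and *POU5F1* were highest in other pools. The 2 pools were the most alike of the 12 (Spearman correlation 0.955). The share of all genes that were highest in these 2 pools was not counted.

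*AMOTL2* had the smallest p of the 8 genes among the concordant pools. In control pools the levels were 92.6 and 101 CPM for Ram410, 121 and 175 CPM for Ram423, and 152 and 36.8 CPM for Ram444. In treatment pools they were 187, 194, 208 and 190 CPM for Ram424, 148 CPM for Ram498 and 52.5 CPM for Ram511. The 4 pools of Ram424 were the highest of all, while the pool of Ram498 fell inside the control range. In 12 pools the log2 fold change was 0.53 (SE 0.37; FDR 0.735). In 10 pools it was 0.52 (SE 0.21; 95% interval 0.06 to 0.97), with an unadjusted p of 0.0278 and an FDR of 0.363 by edgeR, which did not pass. Without Ram424, with Embryo498_1 and the discordant Embryo511_1 as the treatment pools, it was −0.16. Compared by ram over all 12 pools, with 3 against 3, an exact two-sided permutation test gave p = 0.8, where 0.1 is the smallest it can give. In it, Ram511 was represented by the discordant Embryo511_1 alone and Ram444 in part by the discordant Embryo444_2. Ram511 has no pool among the 10 concordant ones, so their difference was not tested by ram.

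STK3 and LATS2 are the kinases measured. *STK3* was at 22.1 to 58.4 CPM in the concordant control pools and at 21.2 to 41.3 CPM in the concordant treatment pools. It was highest in the 2 discordant pools, at 75.04 CPM in pool Embryo444_2 and 76.3 CPM in pool Embryo511_1, which is opposite to *TEAD4*, *AMOT* and *AMOTL2*. Its log2 fold change was −0.15 (SE 0.37; FDR 0.936) in 12 pools and −0.21 (SE 0.31; FDR 0.825) in 10. With the pools of each ram summed, the value was 0.18, so no direction can be given.

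*LATS2* had a median of 57.4 CPM in control pools (26.2 to 85.0 CPM) and 74.5 CPM in treatment pools (54.2 to 146 CPM). The lowest value was that of pool Embryo444_2 and the highest that of pool Embryo511_1, so the discordant pools pulled the groups apart. The log2 fold change was 0.55 (SE 0.30; 95% interval −0.08 to 1.18) in 12 pools, with an unadjusted p of 0.0832 and an FDR of 0.664 by edgeR. In the 10 concordant pools it was 0.16 (SE 0.22; FDR 0.817), at means of 61.9 ± 14.97 CPM (SD, n = 5) with control and 69.7 ± 11.9 CPM (SD, n = 5) with treatment sires. Among those pools *LATS2* was one of the steadiest of the 8 genes, with a highest level 1.91 times the lowest.

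*WWTR1* encodes TAZ, the coactivator measured here. Its levels were 157 and 113 CPM for Ram410, 244 and 123 CPM for Ram423, and 158 and 46.0 CPM for Ram444, and with treatment sires 285, 277, 167 and 156 CPM for Ram424, 81.3 CPM for Ram498 and 120 CPM for Ram511. The treatment pools thus held both the highest and, among the concordant pools, the lowest level. The log2 fold change was 0.37 (SE 0.38; FDR 0.815) in 12 pools and 0.27 (SE 0.31; FDR 0.758) in 10. It turned to −0.47 without Ram424, with Embryo498_1 and the discordant Embryo511_1 as the treatment pools.

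TEAD1 and TEAD4 are DNA-binding partners of the coactivators, and TEAD4 is the one required for trophectoderm in the mouse. *TEAD4* was, relative to the median of the other pools, the member most reduced in the discordant pools, at 7.79 CPM in pool Embryo444_2 and 10.9 CPM in pool Embryo511_1, against 25.5 to 92.4 CPM in the others. Among the concordant pools its mean was 43.9 ± 13.4 CPM (SD, n = 5) with control sires and 64.0 ± 24.8 CPM (SD, n = 5) with treatment sires. Its log2 fold change was 0.55 (SE 0.46; FDR 0.770) in 12 pools and 0.54 (SE 0.30; 95% interval −0.09 to 1.16; FDR 0.494) in 10. The 3 highest pools, at 92.4, 82.1 and 67.9 CPM, were all sired by Ram424. Without that ram, with Embryo498_1 and the discordant Embryo511_1 as the treatment pools, the log2 fold change was −0.71.

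*TEAD1* behaved differently from *TEAD4* in the discordant pools, with 346 CPM in pool Embryo444_2, the highest of all, and 189 CPM in pool Embryo511_1. In the concordant pools it lay at 170 to 252 CPM with control sires and at 249 to 317 CPM with treatment sires, where only the highest control pool overlapped the lowest treatment pool. The fitted log2 difference was 0.16 (SE 0.27; FDR 0.896) in 12 pools and 0.37 (SE 0.20; 95% interval −0.04 to 0.79; FDR 0.466) in 10. The direction was the same under every alternative run for *TEAD1*, from 0.08 to 0.38, but in none did it pass an FDR under 0.05.

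**Figure D2:**
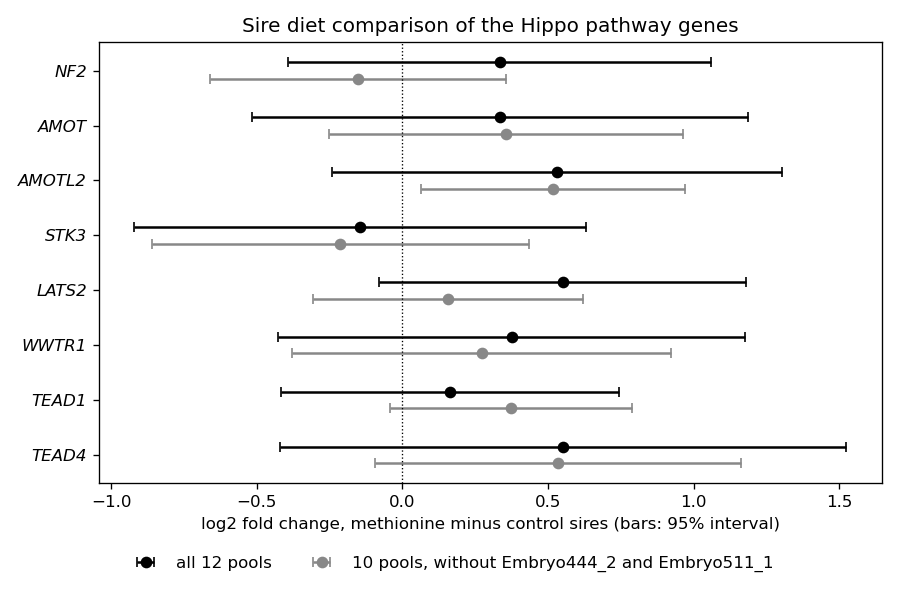
Log2 fold change of the 8 Hippo genes (methionine minus control sires) with 95% intervals, in 12 pools (black) and in the 10 concordant pools (grey). In 12 pools all 8 intervals include 0, and in 10 pools that of *AMOTL2* (0.06 to 0.97) does not, while *NF2* changes sign.

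A pool mixes trophectoderm with inner cell mass, so that fewer cells of a type and less RNA per cell cannot be told apart. Across the 12 pools, *TEAD4* and *AMOTL2* had a Spearman correlation of 0.67, *WWTR1* and *TEAD4* 0.66, and *WWTR1* and *AMOT* 0.66. In pool Embryo444_2 all of these genes were below the 10 concordant pools. In pool Embryo511_1 this held for *TEAD4*, *AMOTL2* and *AMOT*, but *WWTR1* was within their range, at 120 CPM. In the 10 concordant pools these correlations were 0.43, 0.48 and 0.53, and the highest of the 28 pairs was *WWTR1* with *LATS2*, at 0.71. With *KRT8*, *AMOT* had −0.05 over 12 pools and −0.82 over 10, where pools Embryo424_1 and Embryo424_2 combined the highest *AMOT* with *KRT8* levels of 4789 and 5088 CPM. These correlations describe pools that share sires and carry no test. The 3 genes whose levels followed those of *NF2* most closely over 12 pools were *MXD3*, *TOMM34* and *USP40*, with Spearman correlations of 0.92, 0.90 and 0.89. They were picked as the largest over all genes tested, and whether so many genes would give such values by chance was not tested. *MXD3* and *TOMM34* had as few as 14 and 13 reads in a pool.

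Another 71 genes of the pathway were grouped by role, of which 64 were tested. None passed an FDR under 0.05, and 2 had an unadjusted p under 0.05, both lower with treatment sires, where 4.37% of all genes were lower at that level. These were *AMOTL1*, the third angiomotin, and *DCHS1*, an atypical cadherin that acts as a ligand of FAT4. With the 10 concordant pools, 7 of 64 had an unadjusted p under 0.05, 4 higher and 3 lower, against 11.9% of all genes.

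*AMOTL1* was at 86.4 to 147 CPM in control pools and at 69.3 to 93.3 CPM in treatment pools. Only the lowest control pool, Embryo423_1, fell within the treatment range. The log2 fold change was −0.53 (SE 0.22) with an FDR of 0.607, and −0.51 (SE 0.21) with an FDR of 0.355 in 10 pools. Thus *AMOTL1* and *AMOTL2* had fold changes of opposite sign, neither of which passed the FDR, and the difference between them was not tested. *DCHS1* had 254 CPM in pool Embryo410_1, while the other 11 pools had 35.7 to 90.6 CPM. Its log2 fold change was −1.07 (SE 0.41) with an FDR of 0.585, and it was between −1.39 and −0.44 when a pool or ram was left out.

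Among the 10 core kinases and adaptors, 6 were higher and 4 lower in fitted level, with a median log2 fold change of 0.07. *MOB1B*, which activates LATS, had the smallest p of this group, and its log2 fold change of 0.94 (SE 0.54; FDR 0.683) came from 385 CPM in pool Embryo511_1, since the other 11 pools had 35.5 to 64.4 CPM and gave −0.25 without it. The 15 upstream junction and membrane regulators tested had a median of −0.06, or −0.03 in the 10 concordant pools, with 7 higher and 8 lower in both. Here *PTPN14*, a phosphatase that retains YAP1 outside the nucleus, had 0.63 (SE 0.33; FDR 0.663), and *AJUBA*, a LIM protein that inhibits LATS, had −0.54 (SE 0.35; FDR 0.713). *WWC1* (KIBRA), which acts beside NF2, was at 998 to 2022 CPM in the concordant pools and at 135 and 83.3 CPM in pools Embryo444_2 and Embryo511_1.

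The 11 polarity genes tested had a median of 0.25, or 0.26 in the 10 concordant pools, with 8 higher and 3 lower in both. The largest value was that of *SCRIB*, a basolateral scaffold, at 1.30 (SE 0.72; FDR 0.666). It came from a single pool: Embryo424_3 had 220 CPM, while the other 11 had 8.36 to 27.6 CPM, and without it the value was −0.53. The 9 genes of the STRIPAK phosphatase complex, which opposes STK3, had a median of 0.22 (7 higher). The 5 coactivator partners, which include *TEAD2* and *TEAD3*, had a median of 0.05 (3 higher). In the 10 concordant pools these medians were 0.14 and 0.08, with the same numbers higher.

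Of 17 general YAP targets 13 were tested. Their median was −0.03 with 6 higher in the 10 concordant pools, and 0.06 with 8 higher in 12 pools. *CRIM1*, a membrane protein, was at 88.7 to 126 CPM in control pools and at 117 to 145 CPM in treatment pools. Its log2 fold change was 0.36 (SE 0.20; FDR 0.669) in 12 pools and 0.41 (SE 0.18; FDR 0.385) in 10. Its concordant pools did not overlap, with 136 to 145 CPM in treatment pools and a highest control pool at 126 CPM, which held for 1.76% of all genes. *NT5E*, an ecto-nucleotidase, went the other way at −0.50 (SE 0.28; FDR 0.666). Of the 3 lineage targets, *CDX2* was tested and *GATA3* and *SOX2* were not analysed here. *CDX2*, which marks trophectoderm, had 110 CPM in pool Embryo410_1, 2.83 CPM in pool Embryo444_2 and 7.93 CPM in pool Embryo511_1, and 23.2 to 43.0 CPM in the other 9. Its log2 fold change was −0.33 (FDR 0.892), and 0.32 without pool Embryo410_1.

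**Figure D3:**
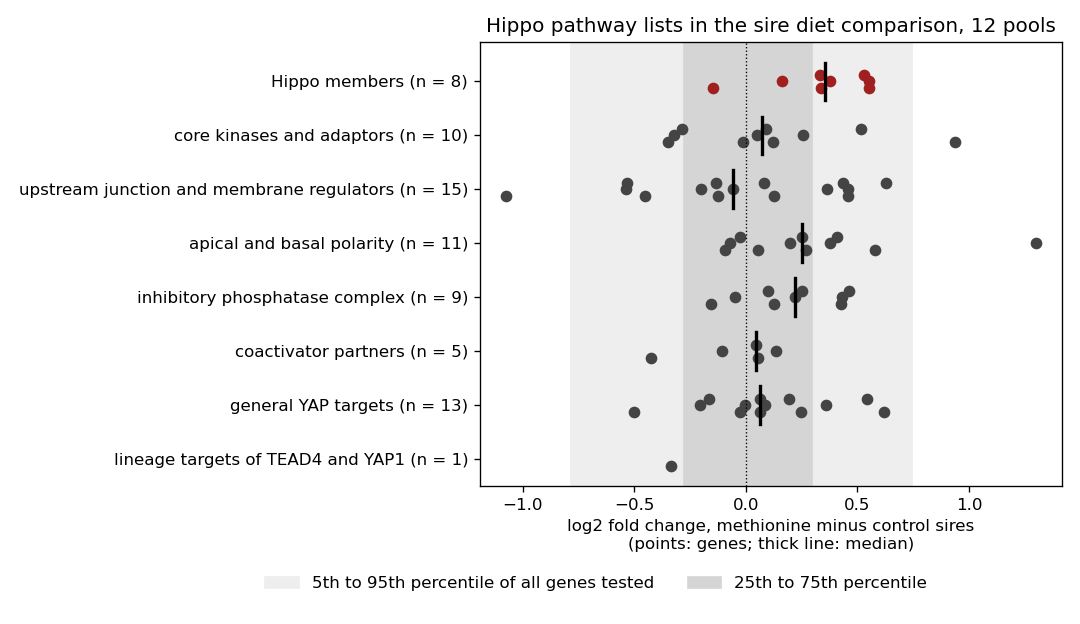
Log2 fold change (methionine minus control sires, 12 pools) of the 8 Hippo genes (red) and the 64 other pathway genes (grey) by role, with list medians as thick lines and the 5th to 95th and 25th to 75th percentiles of all 16488 genes as shaded bands. The 8 Hippo genes have a median of 0.35, and most pathway genes lie within the bands, with *DCHS1* at −1.07 and *SCRIB* at 1.30 the farthest out.

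In sperm, the *NF2* cytosine was chosen because it differed between diets, so its values are given as a description. Methylation was measured by reduced representation bisulfite sequencing (RRBS), in which bisulfite turns unmethylated cytosines into thymines. The site lies on chromosome 17 at position 78063487, on the forward strand of Oar_rambouillet_v1.0, where the study's annotation places it in an intron of *NF2*. In control rams, 19 of 20 reads were methylated in Ram410 (95%), 20 of 20 in Ram423 and 17 of 17 in Ram444. In methionine-treated rams the numbers were 13 of 21 in Ram424 (61.9%), 5 of 12 in Ram498 (41.7%) and 8 of 18 in Ram511 (44.4%). All 3 treated rams were thus below all 3 control rams.

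Treated rams averaged 49.3% ± 10.97 (SD, n = 3) and control rams 98.3% ± 2.89 (SD, n = 3), and the pooled reads differed by −47.3 points. The exact 95% binomial intervals were 38.4% to 81.9% for Ram424, 15.2% to 72.3% for Ram498 and 21.5% to 69.2% for Ram511, and for the control rams the lowest bound was 75.1%. They cover counting error only, and the coverage of 12 to 21 reads leaves each level imprecise. The median coverage of all cytosines was 39 reads in Ram498 and 31 in Ram511, against 22 to 25 in the other rams. Ram498 nonetheless had the fewest reads at the site, 12, and the reason was not tested. Over all cytosines, 2.94% had an unadjusted p under 0.05, and at 2.43% the levels of the diets did not overlap. The site was among 341 cytosines (0.0184%) that passed both thresholds, a q under 0.01 and more than 20 points between diets, of which 291 (0.0157%) were lower in treated rams, and it ranked 122 by p. It was not called by an F test of the same fit (q = 0.971) or by limma on logit levels (q = 0.327), both of which called 0 cytosines. An exact permutation test over 3 against 3 rams cannot give a p under 0.1 at any one site.

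The fall was not seen in the cytosines beside it. At distances of −11, 15 and 30 bases on the same strand, the levels in treated rams were 94.4% to 100%, 100% and 83.3% to 100%. In control rams all were 100% except at −11, where Ram444 had 47.1% of 17 reads. Over these 3 cytosines the mean was 97.5% ± 2.83 (SD, n = 3) in treated and 94.1% ± 10.2 (SD, n = 3) in control rams (exact permutation p = 1). Over the 9 cytosines within 1000 bases it was 97.6% and 97.4% (exact permutation p = 0.9). The cytosine of the opposite strand of the same CpG was not analysed here. Bisulfite reads do not separate an unmethylated cytosine from a thymine in the sequence of the ram, and the share of either at this site was not tested.

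**Figure D4:**
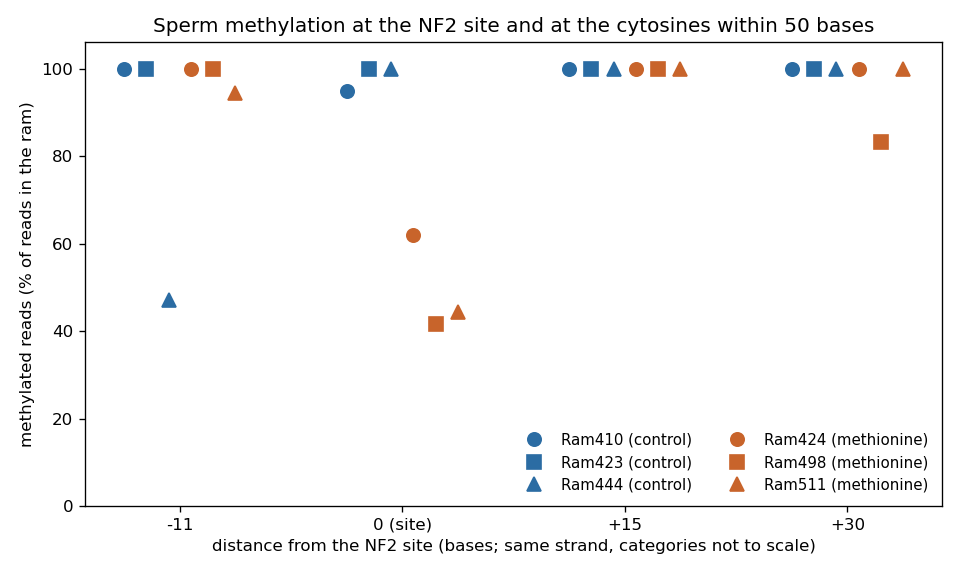
Methylated reads in percent at the *NF2* site (0) and at the 3 cytosines within 50 bases on the same strand, for each of 3 control (blue) and 3 methionine-treated (orange) rams. Treated rams lie at 41.7% to 61.9% at the site and at 83.3% or above at the neighbours, and Ram444, a control ram, is at 47.1% at −11 bases.

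Other cytosines nearby also differed between rams, with levels of treated and control rams that overlapped. At −1378 bases the levels ran from 50% in Ram410 to 100% in Ram511, and the pooled reads were 22.1 points higher in treated rams (q = 0.841). At −1203 bases, on the other strand, Ram410, Ram424 and Ram498 were at 0%, Ram511 at 28.6%, Ram423 at 37.9% and Ram444 at 55.8%, and the pooled difference was −29.4 points (q = 0.841). At −1191 bases only Ram424 (46.4%) and Ram444 (58.1%) were above 0%. The first 2 differences exceeded 20 points but did not pass the q threshold. Of the 5 cytosines between them, those at −1356, −1265 and −1196 bases were at 100% in all 6 rams, and those at −1261 and −1252 bases were at 100% in 5 rams, with Ram444 at 95.3% and Ram511 at 95%.

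Within 40 kb of the site 186 cytosines were measured. From −33360 to 15063 bases, 57 had a pooled level of 80% or more, with means of 97.3% ± 1.05 (SD, n = 3) in treated and 97.9% ± 0.668 (SD, n = 3) in control rams. From 32622 to 34215 bases lay a cluster of 121 cytosines at 20% or less, with means of 1.64% and 1.21%. The site itself was the single one of the 186 that passed both thresholds. The next such cytosine on chromosome 17, where 11 of 67831 passed, lay at a distance of −420126 bases.

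**Figure D5:**
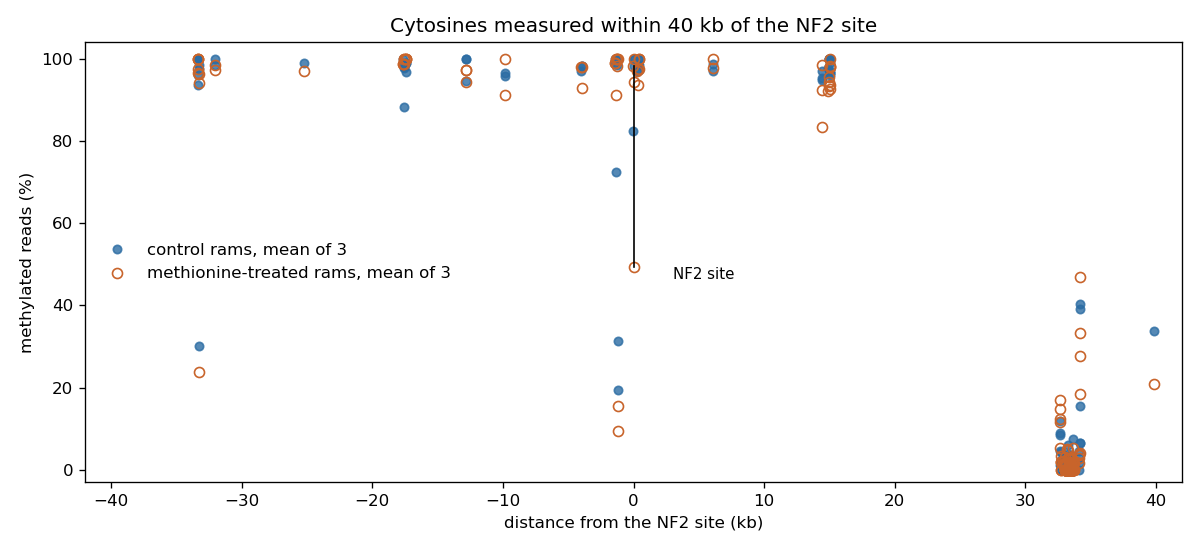
Mean methylated reads in percent of 3 control (blue) and 3 methionine-treated (orange) rams at 186 cytosines, by distance in kb from the *NF2* site, whose 2 means are joined by a line. From −33360 to 15063 bases 57 cytosines are at 80% or more, with lower levels at a few such as −1203, −1191 and −33281 bases, a cluster of 121 beyond 32622 bases is at 20% or less, and at the site the treated mean is 49.3% against 98.3%.

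The level at the site was set beside the *NF2* RNA of the embryos ram by ram. The 6 rams fell into separate groups by methylation, so no correlation was computed. The control rams, at 95% to 100% methylation, had mean *NF2* levels of 135, 133 and 101 CPM in the embryos they sired (Ram410, Ram423 and Ram444, with 2 pools each). Of the treated rams, Ram424 (61.9%) had 113 CPM over 4 pools, Ram498 (41.7%) had 135 CPM in its pool, and Ram511 (44.4%) had 347 CPM in the discordant pool Embryo511_1. Apart from that pool, each treatment pool had an *NF2* level within the range of the control pools, 76.4 to 191 CPM.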

How the data were processed

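Gene counts of 12 embryo pools and read counts at cytosines of 6 sperm samples were analysed. The authors aligned trimmed RNA reads with STAR and RRBS reads with Bismark (duplicates removed by molecular identifiers) to Oar_rambouillet_v1.0, and deposited raw counts per gene and counts of methylated and unmethylated reads per cytosine with at least 10 reads in all rams. The strand setting of the gene counts is not given in the sources used here. The quasi-likelihood test was that of edgeR 4.0.16 (TMM, FDR under 0.05), on genes that reached 15 counts in over 3 pools, where the study used a likelihood-ratio test, given as an alternative. CPM were computed from the counts, and per-ram permutation tests used log2(CPM + 1). Cytosines were tested by logistic regression with overdispersion of at least 1 and a chi-square test. The study's age term was left out because the age of each ram was not used here. DESeq2 1.42.0 and limma 3.58.1 gave alternatives, and the scripts were tested on simulated data.

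The Hippo genes, pathway lists and tests were chosen with earlier results of these data known. Named genes are the members, *CDX2*, *GATA3*, *SOX2*, the 4 pathway genes with the smallest p in each direction, the 3 most like *NF2* and the most abundant gene of each marker list; *WWC1*, *CDH1*, *MOB1A*, the other marker genes and the cytosines beyond 50 bases were named after their values were seen. *PATJ* was matched by its RefSeq gene ID. Leaving out pools Embryo444_2 and Embryo511_1 was also chosen after seeing the data. Sequence around the site was not used here.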

Additional observations from a re-analysis of the deposited data

Results flagged for a closer look

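In 34 groups of 6 pools of the named pathway genes, 7 held a pool whose gap to the nearest other pool, on the scale of log2(CPM + 1), was above Dixon's 95% critical share of the range of the group. Chance gives about 1 in 20 groups where groups are independent. These groups share the same pools, and some of the genes were named for a small p in these data, so that rate is no benchmark here. With control sires, *AMOT* was lowest in pool Embryo444_2, at 119.6 CPM. With treatment sires, pool Embryo511_1 was lowest for *AMOTL2* (52.5 CPM), *CRIM1* (117.0 CPM) and *CDX2* (7.93 CPM), and highest for *NF2* (347.0 CPM) and *MOB1B* (384.7 CPM). Pool Embryo424_3 was highest for *SCRIB*, at 219.5 CPM. Of these 7 values, 6 were in pools Embryo444_2 and Embryo511_1. The set depends on the scale. On CPM without the log, a comparison added after seeing the data, 9 passed, of which 4 were the same (*NF2*, *SCRIB*, *CRIM1* and *MOB1B*). *AMOT*, *AMOTL2* and the *CDX2* value of Embryo511_1 did not pass on CPM, whereas *LATS2* (145.7 CPM), *STK3* (76.3 CPM) and *DCHS1* (65.4 CPM), highest in Embryo511_1, and *DCHS1* (254 CPM) and *CDX2* (110 CPM), highest in Embryo410_1, did.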

How the results depend on the processing

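The 8 Hippo genes and the 64 other pathway genes gave 0 calls under all 29 alternatives for the embryos. The number of genes called was 0 in 12 pools and with each pool or ram left out, but 5 with the likelihood-ratio test, 16 with DESeq2, 1 without pools Embryo444_2 and Embryo511_1, and without them 74 and 109 with these 2 tests. Directions were less steady. With the ram as a random effect, *AMOT* had a log2 fold change of −0.15 and *CDX2* one of 0.090. With pools summed per ram, *STK3* had 0.18. Without both discordant pools, *NF2* had −0.15 with edgeR, the likelihood-ratio test and DESeq2, and *MOB1B* −0.25, −0.25 and −0.24. With each pool or ram left out, log2 fold changes ranged from −0.47 to 0.63 for *WWTR1*, −0.71 to 0.93 for *TEAD4*, −0.54 to 0.51 for *AMOT*, −0.16 to 0.78 for *AMOTL2*, −0.069 to 0.97 for *NF2*, −0.45 to 0.40 for *STK3*, −0.53 to 1.52 for *SCRIB*, −0.25 to 2.05 for *MOB1B* and −0.78 to 0.52 for *CDX2*. The negative ends of *WWTR1*, *TEAD4*, *AMOT* and *AMOTL2* and the positive end of *STK3* came without Ram424, which sired 4 of the 6 treatment pools. That leaves Embryo498_1 and the discordant Embryo511_1 as the treatment pools. The parts of that sire and of the discordant pool in these ends cannot be told apart. In sperm, 341 cytosines passed, against 0 with an F test (6922 at an unadjusted p under 0.05), 0 with limma on logit levels (100111), 5905 without the overdispersion correction, 61 at a coverage of at least 20 reads, and 446 to 1424 with a ram left out (1424 without Ram424). The difference at the *NF2* site was −47.3 points but not called with the F test or limma, and −54.9 to −43.7 points and called with each ram left out. Because the site was chosen for its difference in these same rams, the calls with a ram left out do not test that difference anew. The site was not tested at 20 reads, since Ram498 had 12. The mean of the 3 neighbours was 3.42 points higher in treated rams, and −2.46 to 6.37 points with a ram left out, the lowest without Ram444. The cause of these changes was not tested. Calls within the member genes were not run, for want of an annotation of the build. No paired analysis was possible, because each ram received a single diet and rams were assigned to the diets at random, without pairs.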
